A study of Mus musculus with 9 samples.

Results

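The autophagy machinery was followed at the mRNA level in cultured mouse macrophages exposed to organotins. The genes were a named list of 34 autophagy genes plus every further gene whose symbol is Atg followed by a number, which added Atg4c, Atg4d, Atg9b and Atg16l2. Of the named list 33 were measured, and Optn was not analysed here, so that 37 of the 18193 measured genes are described. The cells were bone marrow derived macrophages grown from C57BL6 mice aged 6 to 12 weeks and used on day 6 of culture. All cultures, controls included, received 33 ng/mL of lipopolysaccharide (LPS, a bacterial wall component that induces inflammatory genes) for 3 h. The TET group was then given triethyltin bromide (TET Br, 10 µM) for 6 h, the TMT group trimethyltin hydroxide (TMT OH, 1.25 µM) for 6 h, and the saline group sterile saline for 6 h, with 3 biological replicates in each. The compounds carry ethyl groups and methyl groups on tin and were given at different doses, so compound and dose cannot be told apart. No group without LPS was analysed here, so every value describes LPS-primed cells.

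Macroautophagy encloses cytoplasm in a double membrane and delivers it to lysosomes. The ULK kinase complex starts the process, a phosphatidylinositol 3-kinase built around beclin and VPS34 marks the site with PI3P, and ATG9 vesicles, ATG2 lipid transfer proteins and PI3P-binding WIPI proteins supply membrane. Paired ubiquitin-like reactions then attach ATG8 proteins (the LC3 and GABARAP families) to the membrane, and cargo receptors tether ubiquitinated proteins or organelles to them. In macrophages the pathway is known for clearing bacteria and damaged mitochondria and for restraining the NLRP3 inflammasome. An mRNA level does not measure autophagic flux, since several of these proteins are themselves degraded in the process.

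RNA was read on 9 Affymetrix arrays, and the values are log2 signals, with the base of the logarithm taken from their range of 2.05 to 14.79. Each gene was represented by its brightest probe set, so a level is comparable between arrays for 1 gene but not between genes. Differences are log2 fold changes from limma with SE, and a gene passed at an adjusted p under 0.05 over all 18193 genes. Errors of group means are SD with n = 3, a size at which exact permutation tests reach 0.1 at the lowest. The labels call the replicates biological without naming separate animals, and the p-values speak only of the spread among these arrays. In bulk RNA, fewer cells of a type and less RNA per cell cannot be told apart. The defining macrophage markers were bright, with a mean over the 8 genes of 12.28 to 12.41 in TET arrays, 12.32 to 12.64 in TMT arrays and 12.50 to 12.55 in saline arrays. Of these 8, 1 rose and 4 fell under TET, and 2 rose and 2 fell under TMT. Means over 7 stromal and endothelial markers were 6.41 to 6.52 under TET, 5.97 to 6.24 under TMT and 5.89 to 5.90 in saline, and 5 of the 7 rose under TET and 2 under TMT. Means over 7 neutrophil markers were 7.07 to 7.20 under TET, 7.05 to 7.33 under TMT and 7.57 to 7.74 in saline, with 4 of 7 fallen under each compound. Of the markers of other cells, 3 of 6 (T and NK cells), 2 of 4 (B cells), 1 of 4 (dendritic cells), 3 of 4 (erythroid cells and megakaryocytes) and 0 of 4 (mast cells and basophils) rose under TET, and 0 of these 22 rose under TMT. Beside these marker counts, 27.4% of all genes rose and 23.4% fell under TET, and 14.3% rose and 13.4% fell under TMT. The TET arrays also had a narrower interquartile range (3.51 ± 0.05, against 3.83 ± 0.04 under TMT and 3.86 ± 0.03 in saline). The part of these shifts in the results below was not tested, apart from the alternative scalings given where they change a call.

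Promoter windows from RefSeq (build GRCm38.p6), running from 250 bases before to 50 bases after a gene's start, were found for 31 of the 37 genes. The windows of the genes with the largest rise and the largest fall under each compound are shown, written along the gene's strand with motif matches in capitals. Uvrag (largest rise under TMT) lies at chr7:99141095-99141394 on the minus strand, Calcoco1 (largest fall under TMT) at chr15:102722129-102722428 on the minus strand, Atg2a (largest rise under TET) at chr19:6241418-6241717 on the plus strand and Ulk2 (largest fall under TET) at chr11:61855043-61855342 on the minus strand.
Uvrag: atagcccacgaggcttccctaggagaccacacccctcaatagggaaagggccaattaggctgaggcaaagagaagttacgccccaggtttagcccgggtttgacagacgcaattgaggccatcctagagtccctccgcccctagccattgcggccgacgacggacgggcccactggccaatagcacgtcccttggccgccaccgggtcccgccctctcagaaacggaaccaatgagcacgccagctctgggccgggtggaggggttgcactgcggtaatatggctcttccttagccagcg
Calcoco1: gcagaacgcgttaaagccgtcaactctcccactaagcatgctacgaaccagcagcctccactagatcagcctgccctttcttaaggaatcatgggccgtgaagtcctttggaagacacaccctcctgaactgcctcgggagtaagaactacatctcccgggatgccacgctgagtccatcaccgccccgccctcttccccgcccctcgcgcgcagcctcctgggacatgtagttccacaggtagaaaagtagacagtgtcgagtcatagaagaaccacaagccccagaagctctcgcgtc
Atg2a: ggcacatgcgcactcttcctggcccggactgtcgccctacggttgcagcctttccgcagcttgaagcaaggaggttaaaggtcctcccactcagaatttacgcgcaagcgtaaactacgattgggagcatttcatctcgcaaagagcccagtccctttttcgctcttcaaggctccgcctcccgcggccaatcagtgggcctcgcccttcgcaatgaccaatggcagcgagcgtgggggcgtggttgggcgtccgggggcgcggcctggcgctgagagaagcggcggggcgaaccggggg
Ulk2: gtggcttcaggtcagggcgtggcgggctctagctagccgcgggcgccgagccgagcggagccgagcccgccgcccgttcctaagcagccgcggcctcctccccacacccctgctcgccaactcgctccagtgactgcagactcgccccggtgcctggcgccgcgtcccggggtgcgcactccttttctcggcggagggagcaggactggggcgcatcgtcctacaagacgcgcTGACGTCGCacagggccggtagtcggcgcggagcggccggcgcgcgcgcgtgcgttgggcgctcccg
Both strands were searched for 4 motifs of factors known to act on autophagy or stress genes. The E-box core CACGTG, read by TFEB, was found in 4 of the 35 windows of the 31 genes (Atg3, Atg5, Atg7 and Atg14), against 7.15% of all 32851 windows. The antioxidant response core TGACNNNGC, read by NRF2, was also found in 4 of the 35 (Atg13, Map1lc3b, Tax1bp1 and Ulk2), against 12.4% of all windows. Whether these shares differ from those of all windows was not tested. The FOXO core GTAAACA (3.65% of all windows) and the ATF4 and CHOP element TGATGNAA (3.97%) had 0 matches in the 35 windows of the 31 genes. Of the windows shown, only that of Ulk2 held a match. A match describes letters and is not a bound site.

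TMT against saline asked which mRNAs differ after the methyl compound. After TMT, 18 of the 37 autophagy genes rose and 4 fell, with a median log2 fold change of 0.29 against 0.01 over all genes. Over all 18193 genes, 14.3% rose and 13.4% fell (27.8% passed). The autophagy genes were brighter than most, with 35 at or above the median brightness of all genes (6.82) and 2 below. Shares over all genes, here and in the other comparisons, therefore include many dimmer genes, and shares over genes of like brightness were not computed. Rises were spread over initiation (4 of 5), membrane supply (3 of 6), conjugation (7 of 11), cargo receptors (2 of 4), nucleation (1 of 6) and ATG8 genes (1 of 5). The falls were Atg9b, Atg16l2, Calcoco1 and Sqstm1. In 29 of the 37 genes the TMT and saline arrays did not overlap, against 44.7% of all genes. Of the 22 calls, 14 held under every alternative in which the gene was tested, the 1.5-fold minimum included.

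TET against saline asked the same of the ethyl compound at its higher dose, with the same saline arrays. After TET, 15 autophagy genes rose and 11 fell, with a median of 0.25 against 0.09 over all genes. Of all genes, 27.4% rose and 23.4% fell (50.8% passed), so a passing gene was less unusual here than under TMT. Of the 15 rises, 11 were at least 2-fold (1212 of the 4982 risen genes in all, or 6.66% of all genes tested), and under TMT 5 of 18 were (693 of 2608, or 3.81% of all genes tested). The TET rises included 3 of 5 initiation genes, 3 of 5 ATG8 genes and 2 of 4 cargo receptor genes, while 3 of 6 nucleation genes and 4 of 11 conjugation genes fell. The TET and saline arrays did not overlap in 30 of the 37 genes, against 58.7% of all genes. With a 1.5-fold minimum added, 11 rose and 8 fell under TET (29.6% of all genes passed) and 13 rose and 4 fell under TMT (17.5% of all genes). Of the 26 calls, 19 held under every alternative in which the gene was tested, that minimum included.

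**Figure D1:**
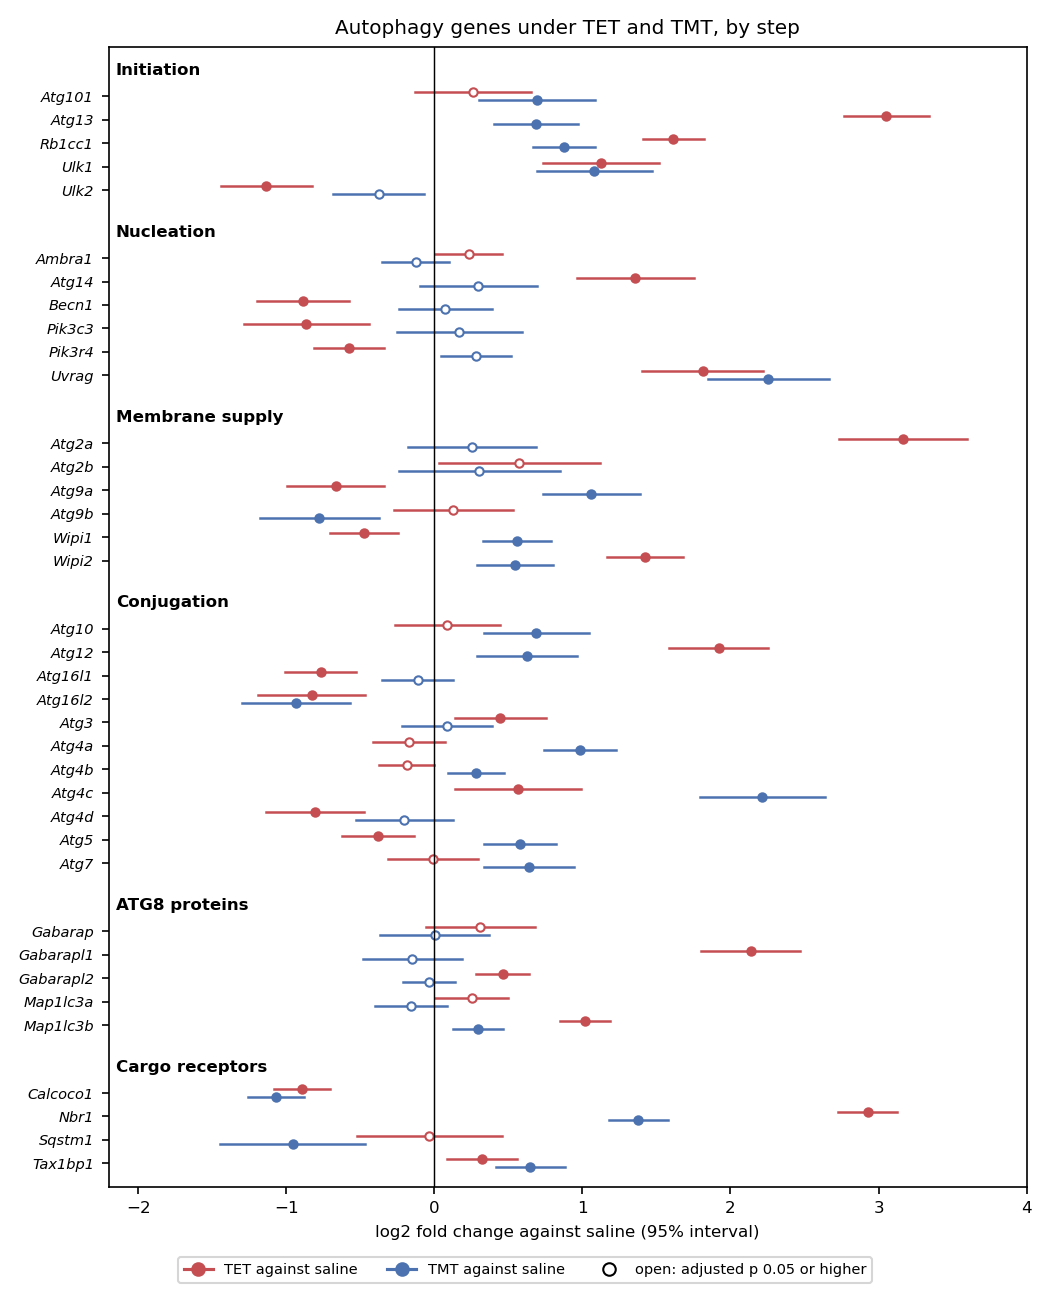
Log2 fold change against saline of the 37 autophagy genes, grouped by step, under TET (red) and TMT (blue), with 95% intervals from limma. Filled points passed at an adjusted p under 0.05. Atg2a, Atg13, Nbr1 and Gabarapl1 lie at 2.14 to 3.17 under TET, and Uvrag and Atg4c at 2.22 to 2.26 under TMT.

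Of the 5 genes of the ULK complex, 3 rose and 1 fell under TET, and 4 rose and 0 fell under TMT. The shares over all genes were 27.4% and 23.4% under TET, and 14.3% and 13.4% under TMT. Atg13, encoding the adaptor that carries phosphorylation signals to the complex, read 11.0, 10.99 and 10.70 in TET arrays, 8.55, 8.52 and 8.52 in TMT arrays, and 7.64, 8.10 and 7.80 in saline arrays. Its 3 groups did not overlap, and the step to TET was the larger. Atg13 rose 8.3-fold under TET (log2 fold change 3.05, SE 0.13, adjusted p = 5.7e-08) and 1.61-fold under TMT (0.69, SE 0.13, adjusted p = 0.0023). Rb1cc1, encoding the scaffold FIP200, read 9.91, 10.18 and 10.02 in TET arrays, 9.34, 9.32 and 9.23 in TMT arrays, and 8.42, 8.48 and 8.36 in saline arrays. These groups were also fully apart, with rises of 3.06-fold under TET (1.62, SE 0.09, adjusted p = 4.6e-07) and 1.83-fold under TMT (0.88, SE 0.09, adjusted p = 5.5e-05).

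Ulk1, encoding the kinase itself, read 7.86, 8.53 and 8.37 in TET arrays, 8.19, 8.02 and 8.41 in TMT arrays, and 7.03, 7.32 and 7.03 in saline arrays. All 6 organotin arrays lay above the saline arrays, and Ulk1 rose 2.18-fold under TET (1.13, SE 0.17, adjusted p = 0.00042) and 2.12-fold under TMT (1.08, SE 0.17, adjusted p = 0.00092). The TET and TMT arrays of Ulk1 overlapped, and their difference was 0.04 (95% interval −0.34 to 0.43). The second Ulk1 probe set rose under both compounds (0.89, adjusted p = 0.000585 under TET, and 0.47, adjusted p = 0.038 under TMT). There TET against TMT was 0.43, adjusted p = 0.033. Ulk2, the paralogue of Ulk1, averaged 7.15 ± 0.19 under TET, 7.91 ± 0.22 under TMT and 8.28 ± 0.12 in saline. Ulk2 fell 2.2-fold under TET (−1.13, SE 0.14, adjusted p = 8.1e-05), and its 2 next brightest probe sets fell too (−1.84, adjusted p = 0.00018, and −1.59, adjusted p = 1.3e-05). Under TMT the difference of Ulk2 was −0.38, SE 0.14, adjusted p = 0.070, which passed once TMT replicate 2 was left out (−0.50, adjusted p = 0.019) or TET replicate 3 (−0.38, adjusted p = 0.045). Atg101, encoding the partner that stabilises ATG13, averaged 8.36 ± 0.39 under TET, 8.79 ± 0.20 under TMT and 8.10 ± 0.01 in saline. It rose 1.62-fold under TMT (0.69, SE 0.18, adjusted p = 0.014), a call lost without TMT replicate 3 (0.58, adjusted p = 0.057). Under TET it was 0.26, SE 0.18, adjusted p = 0.24, with TET replicate 1 below the saline range, and without that array it passed (0.49, adjusted p = 0.0076).

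The kinase that makes PI3P behaved unevenly, with its shared core lower under TET and its alternative subunits higher. UVRAG and ATG14 are the exclusive partners that direct the beclin and VPS34 core to endosomes and maturing autophagosomes or to forming ones. Uvrag read 9.0, 9.66 and 9.76 in TET arrays, 10.04, 9.91 and 9.80 in TMT arrays, and 7.55, 7.86 and 7.58 in saline arrays. Every organotin array lay more than 1 log2 unit above every saline array. Uvrag rose 3.51-fold under TET (1.81, SE 0.18, adjusted p = 2.3e-05) and 4.78-fold under TMT (2.26, SE 0.18, adjusted p = 9.0e-06). TET against TMT was −0.44, SE 0.18, adjusted p = 0.066 for Uvrag, which passed without TET replicate 3 (−0.58, adjusted p = 0.028).

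Atg14 averaged 7.98 ± 0.40 under TET, 6.91 ± 0.17 under TMT and 6.62 ± 0.06 in saline. It rose 2.56-fold under TET (1.36, SE 0.18, adjusted p = 0.00013), while under TMT it was 0.30, SE 0.18, adjusted p = 0.28. Becn1, encoding beclin, fell 1.85-fold under TET (−0.89, SE 0.14, adjusted p = 0.00048), with means of 9.65 ± 0.26 under TET, 10.61 ± 0.17 under TMT and 10.53 ± 0.09 in saline. Pik3c3, encoding the catalytic subunit VPS34, fell 1.82-fold (−0.86, SE 0.19, adjusted p = 0.0036), and Pik3r4, encoding its regulatory subunit VPS15, 1.49-fold (−0.57, SE 0.11, adjusted p = 0.0013). In these 3 core genes all TET arrays lay below both other groups. Under TMT the same genes were 0.07, 0.17 and 0.28 (adjusted p = 0.79, 0.61 and 0.079). Pik3r4 passed under TMT without TET replicate 1 (0.28, adjusted p = 0.049). Ambra1, encoding a beclin partner and ubiquitin ligase adaptor, was 0.23, SE 0.10, adjusted p = 0.081 under TET and −0.12, SE 0.10, adjusted p = 0.45 under TMT. After quantile normalization was applied again Ambra1 passed under TET (0.38, adjusted p = 0.019).

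Among membrane supply genes, the lipid transfer gene Atg2a had the largest rise of all 37 genes. Atg2a read 9.86, 10.35 and 9.88 in TET arrays, 7.21, 6.70 and 7.44 in TMT arrays, and 6.74, 6.81 and 7.05 in saline arrays. The TET arrays stood apart, and the TMT arrays overlapped the saline arrays. Atg2a rose 8.99-fold under TET (3.17, SE 0.19, adjusted p = 6.8e-07) and was 0.25, SE 0.19, adjusted p = 0.42 under TMT. Its paralogue Atg2b averaged 7.13 ± 0.57 under TET, 6.86 ± 0.24 under TMT and 6.56 ± 0.15 in saline, with 0.57, SE 0.24, adjusted p = 0.073 under TET. TET replicate 1 of Atg2b, at 6.48, lay inside the saline range, and without it Atg2b passed under TET (0.90, adjusted p = 0.0010).

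Atg9a, encoding the lipid scramblase of the vesicles that seed the membrane, read 8.49, 8.54 and 8.94 in TET arrays, 10.49, 10.12 and 10.54 in TMT arrays, and 9.34, 9.39 and 9.24 in saline arrays. The TMT arrays were above and the TET arrays below all saline arrays. It rose 2.09-fold under TMT (1.06, SE 0.15, adjusted p = 0.00032) and fell 1.59-fold under TET (−0.67, SE 0.15, adjusted p = 0.0036). Atg9b, its paralogue, averaged 6.54 ± 0.08 under TET, 5.63 ± 0.33 under TMT and 6.41 ± 0.29 in saline. The TMT difference of Atg9b was a fall of 1.71-fold (−0.78, SE 0.18, adjusted p = 0.0082). The dimmer probe set of Atg9b gave −0.07, adjusted p = 0.74 under TMT and rose under TET (0.34, adjusted p = 0.023). Wipi2, encoding the PI3P reader that recruits ATG16L1, read 9.16, 9.58 and 9.23 in TET arrays, 8.48, 8.37 and 8.48 in TMT arrays, and 7.93, 7.88 and 7.89 in saline arrays. Its 3 groups were apart, and it rose 2.68-fold under TET (1.42, SE 0.11, adjusted p = 4.6e-06) and 1.46-fold under TMT (0.55, SE 0.11, adjusted p = 0.0046). Wipi1, a related PI3P reader, averaged 7.14 ± 0.13 under TET, 8.17 ± 0.15 under TMT and 7.61 ± 0.02 in saline, and it rose under TMT (0.56, SE 0.10, adjusted p = 0.0022) and fell under TET (−0.47, SE 0.10, adjusted p = 0.0036). In the brightest Wipi1 probe set with a name not ending in x_at or s_at neither call was made (0.059, adjusted p = 0.80 under TET, and 0.29, adjusted p = 0.30 under TMT). The next such probe set fell under TET (−0.88, adjusted p = 0.016) and was 0.72, adjusted p = 0.064 under TMT.

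**Figure D2:**
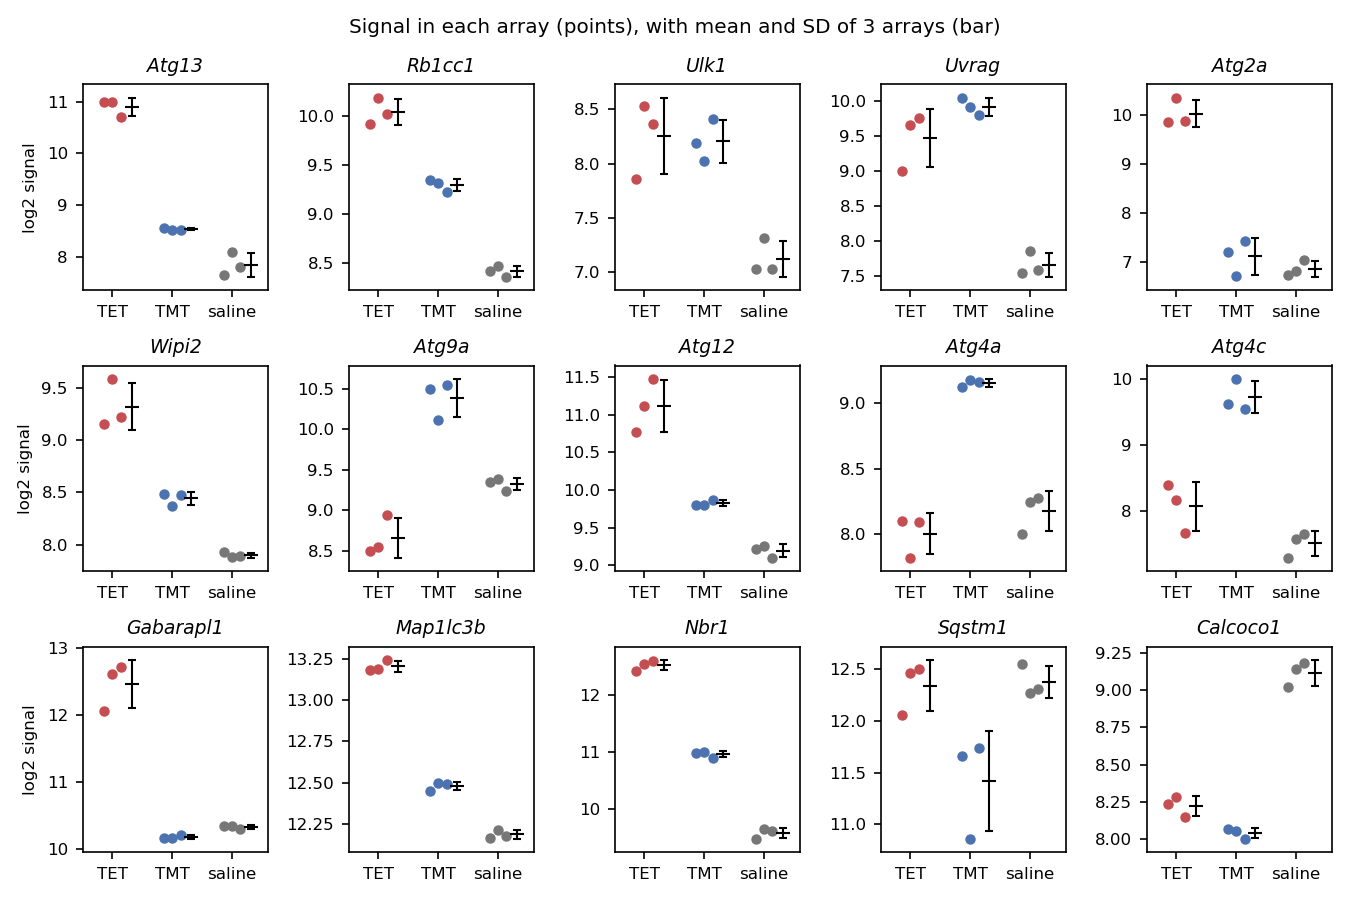
Log2 signal of 15 autophagy genes in each of the 9 arrays (points) of the TET, TMT and saline groups, with the mean and SD of 3 arrays beside them. The vertical scale differs between panels. Atg13, Rb1cc1, Wipi2, Atg12, Map1lc3b and Nbr1 are ordered TET, TMT, saline from high to low in their brightest probe sets, while Atg9a and Atg4a are highest under TMT.

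Of the 11 conjugation genes, 7 rose and 1 fell under TMT, and 3 rose and 4 fell under TET. Over all genes 14.3% rose and 13.4% fell under TMT, and 27.4% rose and 23.4% fell under TET. ATG7 activates the ubiquitin-like proteins, ATG10 and ATG3 pass them on, and ATG12 joined to ATG5 and ATG16L1 places the ATG8 proteins on the membrane. Atg12 read 10.77, 11.11 and 11.47 in TET arrays, 9.80, 9.80 and 9.87 in TMT arrays, and 9.22, 9.26 and 9.10 in saline arrays. The groups did not overlap, and Atg12 rose 3.78-fold under TET (1.92, SE 0.15, adjusted p = 4.0e-06) and 1.54-fold under TMT (0.63, SE 0.15, adjusted p = 0.010). Atg5, the acceptor of ATG12, read 7.60, 7.68 and 7.75 in TET arrays, 8.63, 8.44 and 8.84 in TMT arrays, and 8.0, 8.10 and 8.07 in saline arrays. Its TMT arrays were above and its TET arrays below the saline arrays. Atg5 rose 1.49-fold under TMT (0.58, SE 0.11, adjusted p = 0.0025) and fell 1.3-fold under TET (−0.38, SE 0.11, adjusted p = 0.015). The fall of Atg5 missed the threshold without saline replicate 2 (−0.36, adjusted p = 0.053) and after quantile normalization was applied again (−0.20, adjusted p = 0.15). A probe set of Atg5 with a name not ending in x_at or s_at gave 0.061, adjusted p = 0.71 under TET and 0.35, adjusted p = 0.069 under TMT.

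Atg16l1 averaged 8.49 ± 0.20 under TET, 9.14 ± 0.08 under TMT and 9.25 ± 0.03 in saline and fell 1.7-fold under TET (−0.77, SE 0.11, adjusted p = 0.00023), with −0.11, SE 0.11, adjusted p = 0.54 under TMT. Atg16l2, its paralogue, fell under both compounds (−0.83, SE 0.16, adjusted p = 0.0019 under TET, and −0.94, SE 0.16, adjusted p = 0.0015 under TMT). Atg7 rose 1.56-fold under TMT (0.64, SE 0.14, adjusted p = 0.0054) and was −0.01, SE 0.14, adjusted p = 0.96 under TET. Likewise Atg10 rose 1.61-fold under TMT (0.69, SE 0.16, adjusted p = 0.0083) and was 0.09, SE 0.16, adjusted p = 0.67 under TET. Atg3 averaged 12.03 ± 0.31 under TET, 11.67 ± 0.03 under TMT and 11.59 ± 0.06 in saline and rose 1.36-fold under TET (0.45, SE 0.14, adjusted p = 0.021). That call was lost without saline replicate 1 (0.46, adjusted p = 0.051) or 2 (0.41, adjusted p = 0.071) and with arrays centred on their medians (0.36, adjusted p = 0.059), and without TET replicate 3 its value was 0.29.

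The ATG4 proteases, which trim ATG8 proteins before attachment and release them afterwards, differed from one another. Atg4c read 8.38, 8.15 and 7.66 in TET arrays, 9.62, 9.99 and 9.53 in TMT arrays, and 7.29, 7.57 and 7.65 in saline arrays. All TMT arrays lay far above both other groups, and TET replicate 3 was barely above the highest saline array. Atg4c rose 4.65-fold under TMT (2.22, SE 0.19, adjusted p = 1.3e-05) and 1.48-fold under TET (0.56, SE 0.19, adjusted p = 0.031). The TET call was lost with arrays centred on their medians (0.48, adjusted p = 0.055) and without saline replicate 1 or 2 or TET replicate 1 or 2 (0.41 to 0.60, adjusted p = 0.060 to 0.11). Atg4a read 8.10, 7.82 and 8.09 in TET arrays, 9.12, 9.18 and 9.17 in TMT arrays, and 8.0, 8.24 and 8.28 in saline arrays. It rose 1.98-fold under TMT (0.98, SE 0.11, adjusted p = 7.8e-05), and its TET arrays overlapped the saline arrays (−0.17, SE 0.11, adjusted p = 0.22). Atg4b averaged 8.84 ± 0.07 under TET, 9.31 ± 0.08 under TMT and 9.03 ± 0.01 in saline and rose 1.22-fold under TMT (0.28, SE 0.08, adjusted p = 0.029), but in 5 of the 9 fits without 1 array, those without any saline array or TMT replicate 1 or 2, the adjusted p was 0.081 to 0.090. Under TET it was −0.19, SE 0.08, adjusted p = 0.087. The second Atg4b probe set fell under TET (−0.90, adjusted p = 0.000305), as did the mean over its probe sets (−0.41, adjusted p = 0.0056). Atg4d averaged 7.49 ± 0.17 under TET, 8.09 ± 0.30 under TMT and 8.29 ± 0.05 in saline and fell 1.75-fold under TET (−0.81, SE 0.15, adjusted p = 0.0012).

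Of the 5 ATG8 genes, 3 rose under TET and 1 under TMT, and 0 fell. Among all genes 27.4% rose under TET and 14.3% under TMT. Gabarapl1 read 12.05, 12.61 and 12.72 in TET arrays, 10.16, 10.16 and 10.20 in TMT arrays, and 10.34, 10.34 and 10.30 in saline arrays. The TET arrays were more than 1 log2 unit above all others, and the TMT arrays lay slightly below the saline arrays. It rose 4.4-fold under TET (2.14, SE 0.15, adjusted p = 1.8e-06) and was −0.15, SE 0.15, adjusted p = 0.56 under TMT. Map1lc3b, encoding the LC3B protein used as the marker of autophagosomes, read 13.18, 13.19 and 13.24 in TET arrays, 12.45, 12.50 and 12.49 in TMT arrays, and 12.17, 12.21 and 12.18 in saline arrays. In this brightest probe set the 3 groups were narrow and fully apart. Map1lc3b rose 2.03-fold under TET (1.02, SE 0.08, adjusted p = 2.7e-06) and 1.23-fold under TMT (0.29, SE 0.08, adjusted p = 0.015), the TMT call being lost without saline replicate 1 (0.28, adjusted p = 0.058) or 3 (0.29, adjusted p = 0.057). The order of TET above TMT was not shared by all 4 probe sets of Map1lc3b. The second gave 0.49, adjusted p = 0.0024 under TET and 0.58, adjusted p = 0.0016 under TMT, with TET against TMT at −0.09, adjusted p = 0.46. The third gave 0.23, adjusted p = 0.19 under TET and 0.51, adjusted p = 0.019 under TMT. The fourth and dimmest gave 1.02, adjusted p = 0.0026 under TET and 0.46, adjusted p = 0.15 under TMT. In that one TET against TMT was 0.56, adjusted p = 0.049, as in the direction of the brightest.

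Gabarapl2 averaged 10.17 ± 0.02 under TET, 9.68 ± 0.05 under TMT and 9.71 ± 0.06 in saline and rose 1.38-fold under TET (0.46, SE 0.08, adjusted p = 0.00082), with −0.03, SE 0.08, adjusted p = 0.83 under TMT. Gabarap was 0.31, SE 0.17, adjusted p = 0.14 under TET and Map1lc3a 0.25, SE 0.11, adjusted p = 0.080, and both passed without TMT replicate 2 (adjusted p = 0.024 and 0.043). Under TMT these 2 genes were 0.00 (95% interval −0.37 to 0.37) and −0.16 (−0.40 to 0.09). The dimmer probe set of Map1lc3a fell under both compounds (−0.36, adjusted p = 0.045 under TET, and −0.65, adjusted p = 0.0045 under TMT).

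The cargo receptors split in their brightest probe sets, with Nbr1 and Tax1bp1 higher and Calcoco1 lower under both compounds. Nbr1, encoding a receptor for ubiquitinated aggregates and peroxisomes, read 12.41, 12.54 and 12.58 in TET arrays, 10.98, 11.0 and 10.90 in TMT arrays, and 9.48, 9.64 and 9.62 in saline arrays. Replicates lay close together, and the groups were far apart. Nbr1 rose 7.6-fold under TET (2.93, SE 0.09, adjusted p = 7.8e-09) and 2.6-fold under TMT (1.38, SE 0.09, adjusted p = 2.1e-06). Calcoco1, encoding a relative of the receptor NDP52, read 8.24, 8.28 and 8.15 in TET arrays, 8.07, 8.06 and 8.0 in TMT arrays, and 9.02, 9.14 and 9.18 in saline arrays. Every organotin array was below every saline array, and it fell 1.86-fold under TET (−0.89, SE 0.08, adjusted p = 1.5e-05) and 2.1-fold under TMT (−1.07, SE 0.08, adjusted p = 7.6e-06). The dimmer probe set of Calcoco1 passed under neither compound (0.12, adjusted p = 0.30 under TET, and 0.003, adjusted p = 0.99 under TMT).

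Sqstm1, encoding p62, the best known receptor and itself a substrate of autophagy, read 12.06, 12.46 and 12.51 in TET arrays, 11.66, 10.86 and 11.74 in TMT arrays, and 12.56, 12.27 and 12.31 in saline arrays. The TMT arrays were below the rest, TMT replicate 2 the lowest, and the TET arrays overlapped the saline arrays. Under TMT Sqstm1 fell 1.94-fold (−0.96, SE 0.22, adjusted p = 0.0078), and it was −0.03, SE 0.22, adjusted p = 0.91 under TET. Its dimmer probe set pointed up under both compounds (1.52, adjusted p = 5.5e-05 under TET, and 0.90, adjusted p = 0.0031 under TMT). The direction of Sqstm1 mRNA against saline is therefore not settled by these arrays. TET against TMT was higher in both probe sets (0.92, SE 0.22, adjusted p = 0.0055 in the brightest, and 0.62, adjusted p = 0.0135 in the dimmer). Tax1bp1, encoding a ubiquitin-binding receptor that also restrains NF-kB signalling, averaged 12.32 ± 0.05 under TET, 12.65 ± 0.10 under TMT and 12.0 ± 0.17 in saline. It rose 1.57-fold under TMT (0.65, SE 0.11, adjusted p = 0.00096) and 1.25-fold under TET (0.32, SE 0.11, adjusted p = 0.028). The TET call of Tax1bp1 was lost without saline replicate 1 or 3 or TET replicate 1 or 2 (adjusted p = 0.058 to 0.11) and with arrays centred on their medians (0.086).

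TET against TMT tested whether the exposed groups differed from each other, at doses of 10 and 1.25 µM. Of the 37 genes, 15 were higher under TET, 15 were lower and 7 did not pass, with a median of 0.11, as over all genes (0.11). With a 1.5-fold minimum, 11 were higher and 13 lower (30.5% of all genes passed). Over all genes 28.1% were higher and 23.7% lower (51.8% passed). Higher under TET were 4 of 5 ATG8 genes and 3 of 6 membrane supply genes, and lower were 8 of 11 conjugation genes and 3 of 6 nucleation genes. The largest differences upward were Atg2a (2.91, SE 0.19, adjusted p = 1.2e-06), Atg13 (2.37, SE 0.13, adjusted p = 3.0e-07), Gabarapl1 (2.29, SE 0.15, adjusted p = 1.0e-06), Nbr1 (1.55, SE 0.09, adjusted p = 4.3e-07) and Atg12 (1.29, SE 0.15, adjusted p = 5.6e-05). Downward they were Atg9a (−1.73, SE 0.15, adjusted p = 5.9e-06), Atg4c (−1.65, SE 0.19, adjusted p = 5.1e-05) and Atg4a (−1.16, SE 0.11, adjusted p = 1.4e-05). The arrays of the 2 groups did not overlap in 33 of the 37 genes, against 57.0% of all genes. Calls lost without 1 array were Ambra1 without TMT replicate 3 (0.29, adjusted p = 0.059), Tax1bp1 without TMT replicate 1 or 2 or TET replicate 3 (0.058 to 0.075), and Atg3, which stood at the threshold (0.0499) and was lost without any array but TET replicate 1. Genes that came to pass without 1 array were Uvrag (above), Atg101 without TET replicate 2 or 3 (0.038 and 0.037), Atg2b without TET replicate 1 (0.59, adjusted p = 0.0092) and Gabarap without TMT replicate 3 (0.46, adjusted p = 0.046).

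**Figure D3:**
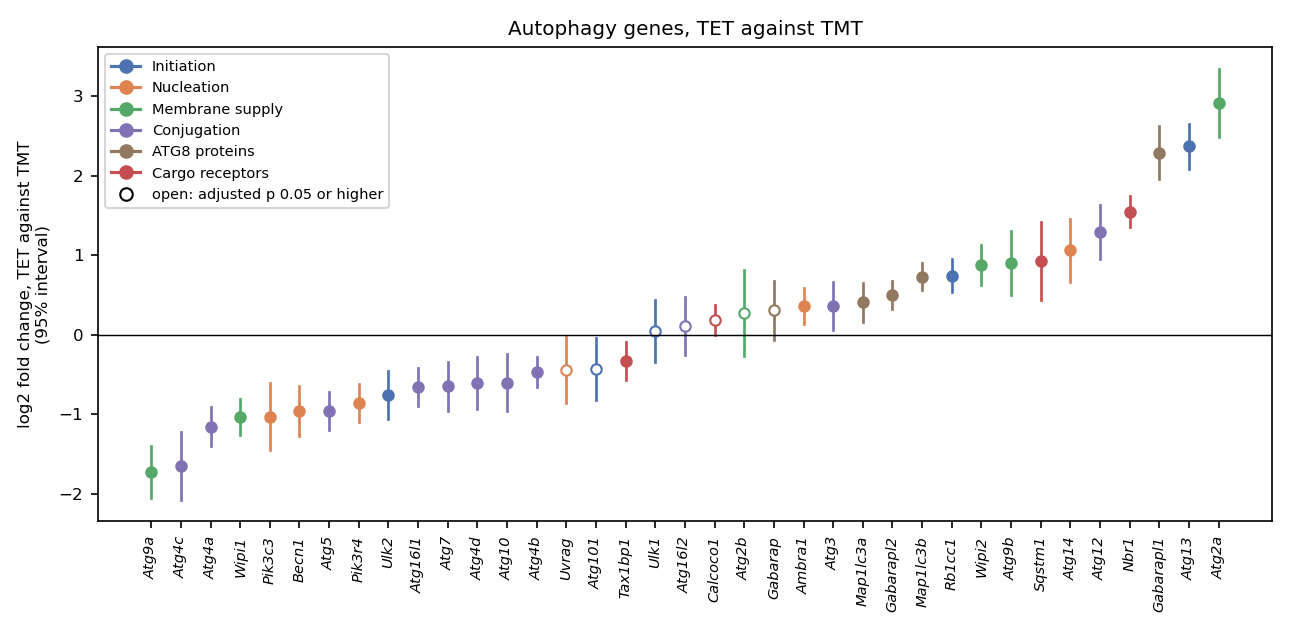
Log2 fold change of TET against TMT for the 37 autophagy genes in order of size, coloured by step, with 95% intervals. Filled points passed at an adjusted p under 0.05. The ends of the order are Atg9a at −1.73 and Atg2a at 2.91, and 8 of 11 conjugation genes lie among the genes that passed below 0.

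Other probe sets of the same gene often gave the same call but not always the same size. Under TMT, 18 of the called genes had further probe sets, which passed the same way for 11 and the opposite way for Sqstm1. Under TET, 20 had further probe sets, 12 with a second passing the same way, and Tax1bp1 and Wipi1 had one passing the opposite way. For TET against TMT, 23 had further probe sets, 16 with another passing the same way, and Ambra1, Rb1cc1 and Wipi2 had one passing the opposite way. The second Ambra1 probe set was lower under TET than under TMT (−0.92, adjusted p = 0.00061) and fell under TET against saline (−0.59, adjusted p = 0.0086). For Nbr1 the second probe set gave 3.51, adjusted p = 1.4e-07 under TET and 1.02, adjusted p = 0.00093 under TMT. For Atg13 the 2 dimmer ones gave 2.14, adjusted p = 1.5e-07 and 1.85, adjusted p = 0.00066 under TET. Rb1cc1 rose under TMT in its second probe set (1.07, adjusted p = 0.00034), which gave 0.26, adjusted p = 0.16 under TET, so TET against TMT was lower in that probe set (−0.81, adjusted p = 0.0010) and higher in the brightest. Wipi2 likewise had a second probe set with 0.17, adjusted p = 0.25 under TET and 0.54, adjusted p = 0.0065 under TMT. Of the 3 dimmer Atg7 probe sets under TMT, 1 passed upward (0.68, adjusted p = 0.019) and another was −0.61, adjusted p = 0.076. Where a probe set lies in its transcript was not used here.

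**Figure D4:**
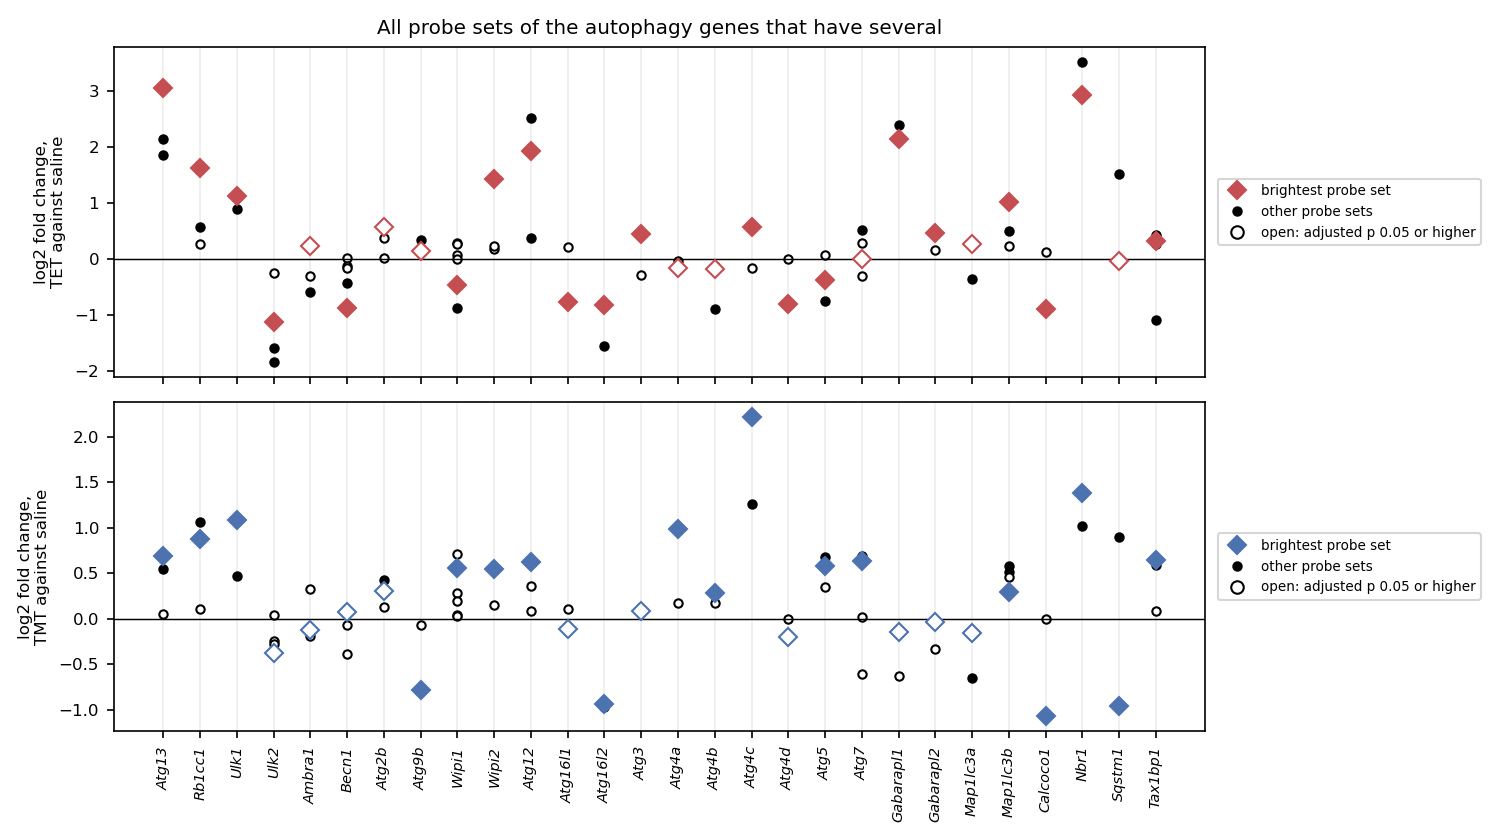
Log2 fold change against saline of every probe set of the autophagy genes with more than 1, under TET (upper panel) and TMT (lower panel). Diamonds are the brightest probe sets, used for the calls, circles the others, and filled symbols passed at an adjusted p under 0.05 over all probe sets naming 1 gene. Nbr1, Atg13 and Gabarapl1 agree in direction under TET, while the probe sets of Sqstm1 stand on opposite sides of 0 under TMT.

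Around this core, 75 other genes of the pathway were measured, of which 24 rose and 9 fell under TMT, and 26 rose and 24 fell under TET. That is 44.0% passed under TMT, against 27.8% of all genes, and 66.7% under TET, against 50.8% of all genes. Among transcription factors that control autophagy or stress genes, 7 of 10 rose and 1 fell under TMT (8 of 10 passed), and 5 rose and 4 fell under TET (9 of 10 passed). Tfeb, encoding the master regulator of lysosome and autophagy genes, averaged 7.74 ± 0.28 under TET, 7.32 ± 0.02 under TMT and 5.51 ± 0.26 in saline. It rose 4.68-fold under TET (2.23, SE 0.16, adjusted p = 2.0e-06) and 3.51-fold under TMT (1.81, SE 0.16, adjusted p = 1.5e-05). Foxo3, a forkhead factor known to induce autophagy genes in muscle, averaged 9.17 ± 0.06 under TET, 10.93 ± 0.13 under TMT and 7.31 ± 0.20 in saline, with 1.86, SE 0.12, adjusted p = 8.6e-07 under TET and 3.62, SE 0.12, adjusted p = 6.2e-08 under TMT. Ddit3, encoding CHOP, rose 7.99-fold under TET (3.0, SE 0.10, adjusted p = 1.3e-08) and 4.95-fold under TMT (2.31, SE 0.10, adjusted p = 2.2e-07).

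Of 16 genes for fusion with lysosomes, 6 rose and 3 fell under TET (56.2% passed), and 5 rose and 0 fell under TMT (31.2%), shares near those of all genes. Plekhm1, encoding an adaptor that joins ATG8 proteins to the HOPS tether, averaged 11.64 ± 0.08 under TET, 10.71 ± 0.10 under TMT and 9.26 ± 0.09 in saline. It rose 5.21-fold under TET (2.38, SE 0.09, adjusted p = 3.7e-08) and 2.72-fold under TMT (1.45, SE 0.09, adjusted p = 2.0e-06). Vps18, a HOPS subunit gene, rose 6.99-fold under TET (2.81, SE 0.15, adjusted p = 2.4e-07), with 0.63, SE 0.15, adjusted p = 0.0085 under TMT.

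Of 16 measured receptors for mitochondria, endoplasmic reticulum and other selective cargo, 1 rose and 9 fell under TET (62.5% passed, against 50.8% of all genes), and 3 rose and 4 fell under TMT (43.8%, against 27.8%). Pink1, encoding the kinase that marks damaged mitochondria, fell 2.66-fold under TMT (−1.41, SE 0.17, adjusted p = 0.00013). For Ccpg1, an endoplasmic reticulum receptor gene, the fall under TET was 2.19-fold (−1.13, SE 0.09, adjusted p = 5.4e-06), and for Stbd1, a glycogen receptor gene with a low signal (means of 3.27 ± 0.45 under TET, 3.67 ± 0.27 under TMT and 4.53 ± 0.11 in saline), it was −1.26, SE 0.21, adjusted p = 0.00067. Both genes also fell under TMT (−0.83, SE 0.09, adjusted p = 7.7e-05 for Ccpg1, and −0.86, SE 0.21, adjusted p = 0.011 for Stbd1). Of 20 genes of the nutrient kinases mTORC1 and AMPK and their regulators, 9 rose and 5 fell under TET (70.0% passed), and 5 rose and 4 fell under TMT (45.0%). Sesn1, encoding an inhibitor of mTORC1, rose 4.46-fold under TMT (2.16, SE 0.29, adjusted p = 0.00026), and Deptor, encoding an mTOR-binding inhibitor, fell 3.99-fold (−2.0, SE 0.12, adjusted p = 1.6e-06). Under TET Sesn1 also rose (1.03, SE 0.29, adjusted p = 0.0135) and Deptor also fell (−1.04, SE 0.12, adjusted p = 7.2e-05). The AMPK subunit genes Prkag2 and Prkaa1 each passed in both directions. Prkag2 fell under TMT (−1.44, SE 0.22, adjusted p = 0.00070) and rose under TET (0.99, SE 0.22, adjusted p = 0.0043). Prkaa1 fell under TET (−1.21, SE 0.18, adjusted p = 0.00029) and rose under TMT (0.94, SE 0.18, adjusted p = 0.0025). TET against TMT was higher for Prkag2 (2.42, SE 0.22, adjusted p = 1.0e-05) and lower for Prkaa1 (−2.16, SE 0.18, adjusted p = 5.0e-06) and for the mitophagy receptor gene Bnip3 (−1.84, SE 0.10, adjusted p = 4.0e-07). In the same comparison Vps18 was higher (2.18, SE 0.15, adjusted p = 1.3e-06) and Foxo3 lower (−1.77, SE 0.12, adjusted p = 1.2e-06). Also lower under TET than under TMT were Wdfy3, encoding a scaffold for aggregate clearance (−1.70, SE 0.12, adjusted p = 1.9e-06), Ncoa4, encoding the ferritin receptor (−1.25, SE 0.10, adjusted p = 3.7e-06), and Zkscan3, encoding a repressor of autophagy genes (−1.26, SE 0.33, adjusted p = 0.0096). Among 13 regulators of nucleation, 5 rose and 3 fell under TET (61.5% passed), and 4 rose and 0 fell under TMT (30.8%).

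**Figure D5:**
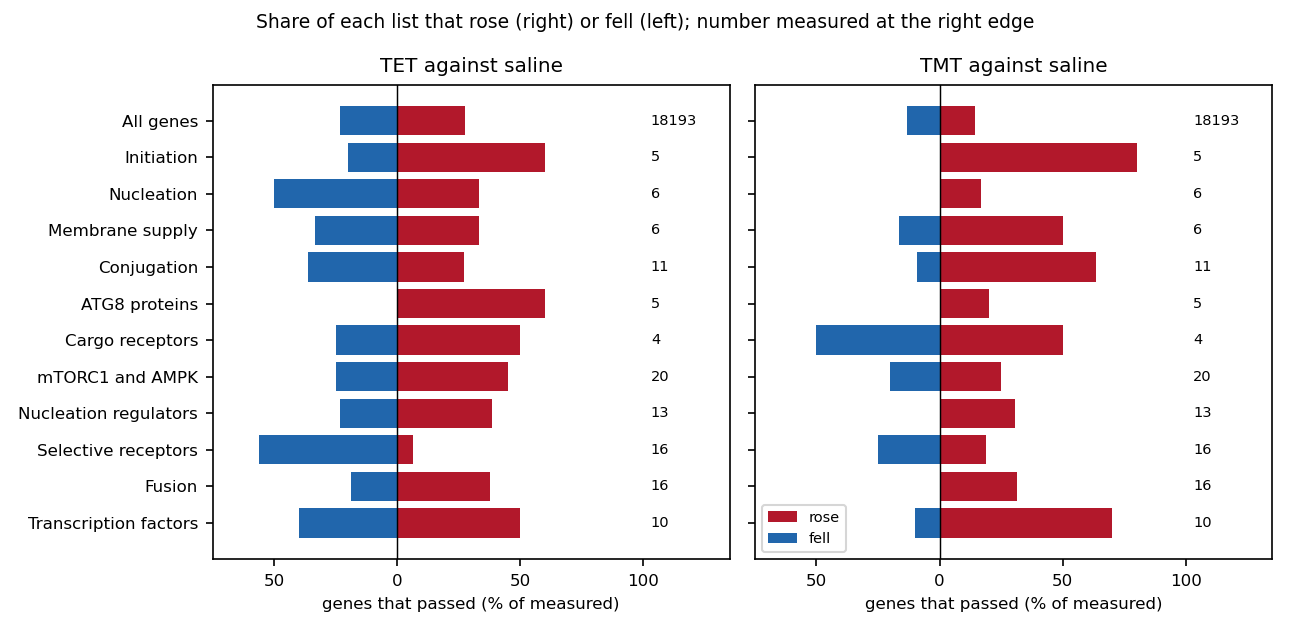
Percentage of the measured genes of each list that rose (right of 0) or fell (left of 0) at an adjusted p under 0.05, for TET and TMT against saline, with the number of genes measured at the right edge and all 18193 genes in the top row. The steps hold 4 to 11 genes, so 1 gene moves a bar by 9 to 25 points. Under TET the selective receptors show 9 falls among 16 genes and the ATG8 genes 3 rises and 0 falls among 5.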

How the data were processed

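Total RNA of 9 cultures (50 ng each) was amplified, biotinylated and read on Affymetrix Mouse Genome arrays, per the labels' protocols. The deposited values are log2 signals that the authors made with RMA and affy, per the submitters' processing notes. The sources used here state neither versions nor whether all 9 arrays were processed together. The table of 45037 probe sets was used as deposited. Of these, 34945 named 1 gene in the platform annotation, 932 several and 9160 none, and the last 2 kinds were left out. Symbols were updated through gene identifiers to GRCm38.p6, in which 204 probe sets had none. Each of 18193 genes took its probe set with the highest mean over all arrays.

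All 9 arrays entered 1 limma model with a mean for each group (limma 3.58.1 in R 4.3.3, 6 residual and 3.99 prior degrees of freedom). Its variances were moderated without trend and two-sided p-values were adjusted (Benjamini and Hochberg) within each of 3 comparisons over 18193 genes. The saline arrays serve both comparisons with saline, and the TMT and TET arrays serve 2 comparisons each. The fit was tested on simulated normal data in which a gene had the same spread in every group, so that test does not cover the uneven spread of these groups. Values in every array are given for the 8 members with the largest fold change among those that passed in each comparison, for Atg5, and for Map1lc3b, which was added after its values were seen. Of the other pathway genes, those that passed with at least a 2-fold change were named, at most 8 in each comparison by size. The members, lists and rules were chosen with earlier results of these data known. Same-numbered replicates were not treated as pairs. Alternatives were leaving out each array in turn, a replicate block, bright genes alone, 2 other scalings, other choices of probe sets, array weights, other moderation, 6 arrays alone and a 1.5-fold minimum. Precision is limited by the number of arrays, and no value used here marks the background.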

Additional observations from a re-analysis of the deposited data

Results flagged for a closer look

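In 3 of the 37 autophagy genes the compounds moved the mRNA in opposite directions against the same saline arrays, with the difference between the compounds tested and passed. The share of all genes with this pattern was not computed. Other pathway genes showed it too, among them Prkag2, Prkaa1, Bnip3, Ncoa4 and Wdfy3, so it was not particular to the genes below. Atg9a, the scramblase gene, differed by −1.73 (TET minus TMT, SE 0.15, adjusted p = 5.9e-06), with −0.67 under TET and 1.06 under TMT and all 3 arrays of each group outside the saline range. This gene has 1 probe set, and each of its 3 calls held under every alternative in which it was tested. Wipi1 differed by −1.03 (adjusted p = 2.0e-05), with −0.47 under TET and 0.56 under TMT. Its brightest probe set is of a kind that may bind related transcripts, and of the 5 others 1 passed upward and 1 downward under TET. Atg5 differed by −0.96 (adjusted p = 4.7e-05), with −0.38 under TET and 0.58 under TMT. Its brightest probe set is of the same kind, and of its 2 others 1 showed the same opposite directions (−0.76, adjusted p = 0.0023 under TET, and 0.68, adjusted p = 0.0078 under TMT). The doses differ, so these differences cannot be told apart from a difference of dose.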

How the results depend on the processing

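The counts of autophagy genes stayed within 1.5 times in every alternative run. Without 1 array, 16 to 19 genes rose and 4 to 5 fell under TMT (18 and 4 with all arrays), and 12 to 17 rose and 10 to 11 fell under TET (15 and 11). For TET against TMT they were 14 to 16 higher and 14 to 16 lower (15 and 15). Under the other alternatives the ranges were 13 to 21 and 3 to 6 under TMT, 11 to 17 and 8 to 12 under TET, and 11 to 16 and 12 to 16 for TET against TMT. With the replicate block 17 rose and 4 fell under TMT, 16 and 11 under TET, and 14 and 15 for TET against TMT. The block ended the TMT call of Atg4b (0.28, adjusted p = 0.061) and the TET against TMT call of Atg3 (0.36, adjusted p = 0.053) and made that of Atg2b under TET (0.57, adjusted p = 0.030). Centred on array medians, 12 rose and 12 fell under TET, Atg4b being the added fall (−0.27, adjusted p = 0.022). For TET against TMT centring made Atg101 pass (−0.49, adjusted p = 0.0475) and ended the call of Atg3 (0.30, adjusted p = 0.105). Quantile normalization applied again made Map1lc3a pass under TET (0.37, adjusted p = 0.034) and Pik3r4 under TMT (0.33, adjusted p = 0.043). It made Calcoco1 pass for TET against TMT (0.37, adjusted p = 0.0045) and ended the call of Tax1bp1 there (−0.29, adjusted p = 0.063). Of the values that had passed or came to pass, direction changed only with the choice of probe set. Without probe sets ending in x_at or s_at, which may bind related transcripts, TET against saline was 0.059, adjusted p = 0.80 for Wipi1, 0.061, adjusted p = 0.71 for Atg5, and −0.36, adjusted p = 0.040 for Map1lc3a, which had not passed before. With the mean over probe sets it was 0.74, adjusted p = 0.0065 for Sqstm1, and −0.024, adjusted p = 0.83 for Tax1bp1, and TET against TMT was −0.23, adjusted p = 0.094 for Ambra1, and −0.018, adjusted p = 0.90 for Atg3. The mean over probe sets also ended the TMT calls of Sqstm1 (−0.03, adjusted p = 0.94) and Atg7 (0.18, adjusted p = 0.15). The cause was not tested. Deviations of same-numbered replicates from their group means had correlations of −0.15 to 0.31, against −0.30 to 0.26 for different numbers. The same-numbered saline and TMT arrays gave 0.16, 0.31 and 0.02. With 3 arrays in a group these ranges cannot decide whether same-numbered replicates belong together. Pik3r4 had no value without probe sets ending in x_at or s_at.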

Other observations

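The spread between replicates of the 37 genes was not even across groups. The SD was largest under TET in 20 genes, under TMT in 13 and in saline in 4. Its median was 0.19 under TET, 0.15 under TMT and 0.07 in saline, against 0.17, 0.12 and 0.09 over all genes. Replicate 1 was the lowest TET array in 23 of the 37 genes, and replicates 2 and 3 in 7 and 7. The lowest array was replicate 2 in 16 genes under TMT and replicate 1 in 15 in saline. These counts were made after the values had been seen.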
